A study of Mus musculus with 7 samples.

Results

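The genes described here are 9 members of the Wnt and R-spondin pathway that are known to act in the ovary, Wnt4, Rspo1, Fzd1, Fzd4, Lgr5, Sfrp4, Axin2, Ctnnb1 and Lef1, among 21755 protein-coding genes of the autosomes and chromosome X. They were chosen by name, and each was taken as its GENCODE gene body in the mouse assembly GRCm38 (mm10) with 50 kb on each side, called its territory below. ChIP-seq, in which an antibody pulls down cross-linked chromatin for sequencing, was done on whole ovaries of C57BL/6J mice that express endogenous estrogen receptor beta (ERβ, encoded by Esr2), with the mouse monoclonal antibody PPZ0506. There were 3 ERβ ChIP replicates and 2 inputs, the inputs being chromatin sequenced without the antibody step, and according to the methods each ChIP replicate pooled the ovaries of several mice. No hormone treatment is given in the labels, and the ovaries were not separated by estrous stage. Knockout ovaries (2 ERβ ChIP samples) were not analysed here, so no value below has been set against tissue that lacks the receptor. Because whole ovaries were used, a site occupied in few cells and a site weakly occupied in many cells cannot be told apart.

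Wnt proteins are secreted ligands that bind Frizzled receptors together with an LRP co-receptor. Without them, a cytoplasmic complex built on Axin marks β-catenin for degradation, and with them β-catenin enters the nucleus and acts through TCF and LEF proteins on DNA. R-spondins bind LGR receptors and remove the ubiquitin ligases that clear Frizzled from the membrane, which raises the response to Wnt. In the mouse, Wnt4 and Rspo1 are required for the ovarian fate of the gonad, and Wnt signalling acts again in granulosa and luteal cells. ERβ is found mainly in granulosa cells and binds DNA at estrogen response elements (EREs), in which GGTCA is repeated in inverted order with a spacer of 3 bases (GGTCANNNTGACC).

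Whether ERβ ChIP signal rose above input near these genes was asked in 200-bp windows. The fold of a ChIP replicate was its mean signal in the window over the mean of the 2 inputs, with a floor for the input at its genome mean of 0.368, and a site was a window over 4-fold in at least 2 of the 3 ChIP replicates. The windows that carry the comparison are printed here on the forward strand of GRCm38, with the best ERE match of at most 2 mismatches in its 10 fixed bases in capitals. Wnt4 and Axin2 are the 2 genes with a site, Sfrp4 has the strongest window that was not called, Fzd1 has an exact ERE outside any site, and Lrp5 and Lgr6, receptors of the same pathway, have strong sites, that of Lgr6 without an ERE.
Wnt4, chr4:137332931-137333130: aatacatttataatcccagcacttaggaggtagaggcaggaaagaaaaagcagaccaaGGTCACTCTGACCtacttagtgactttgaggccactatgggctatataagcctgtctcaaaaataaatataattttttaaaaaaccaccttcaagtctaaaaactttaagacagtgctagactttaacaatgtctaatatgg
Axin2, chr11:108902341-108902540: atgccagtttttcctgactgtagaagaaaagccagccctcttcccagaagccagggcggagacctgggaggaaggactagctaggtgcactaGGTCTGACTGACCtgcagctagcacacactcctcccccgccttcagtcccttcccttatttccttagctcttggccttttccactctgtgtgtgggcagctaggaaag
Sfrp4, chr13:19581041-19581240: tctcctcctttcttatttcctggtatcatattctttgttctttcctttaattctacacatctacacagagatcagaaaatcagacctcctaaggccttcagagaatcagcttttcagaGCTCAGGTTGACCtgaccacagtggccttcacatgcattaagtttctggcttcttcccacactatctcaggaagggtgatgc
Fzd1, chr5:4807031-4807230: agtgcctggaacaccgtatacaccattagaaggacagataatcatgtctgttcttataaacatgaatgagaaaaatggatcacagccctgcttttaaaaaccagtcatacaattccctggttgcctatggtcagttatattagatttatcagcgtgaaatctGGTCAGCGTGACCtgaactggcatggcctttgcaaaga
Lrp5, chr19:3654191-3654390: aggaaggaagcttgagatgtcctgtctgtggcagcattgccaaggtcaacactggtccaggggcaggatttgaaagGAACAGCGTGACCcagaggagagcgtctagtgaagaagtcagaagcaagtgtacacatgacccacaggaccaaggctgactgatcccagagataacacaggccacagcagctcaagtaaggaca
Lgr6, chr1:135005741-135005940: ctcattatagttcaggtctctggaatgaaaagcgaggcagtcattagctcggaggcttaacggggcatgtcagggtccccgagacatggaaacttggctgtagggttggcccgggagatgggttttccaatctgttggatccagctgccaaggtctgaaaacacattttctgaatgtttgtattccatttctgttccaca

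ERβ ChIP signal passed the threshold at 2 of the 9 genes, Wnt4 and Axin2, with 1 site each. That is 22.2% of the genes, and 27.5% of all protein-coding genes had a site in a territory made the same way (27.4% of the 16771 whose territory was within the range of lengths of the 9). Rspo1, Fzd1, Fzd4, Lgr5, Sfrp4, Ctnnb1 and Lef1 had 0 sites. Neither site lay in a gene body or promoter of the 9 genes. The 9 territories covered 1.28 Mb and held 1.56 sites per Mb, against 1.89 per Mb in the whole genome. That genome value includes sequence outside any territory, and no density over the territories of all protein-coding genes was taken. Both calls depended on ChIP replicates 1 and 2: with replicate 1 or replicate 2 left out, and over 4-fold required in both that remained, 0 of the 9 genes had a site. Of all protein-coding genes 25.3% had a site without replicate 1 and 21.1% without replicate 2. With Input replicate 1 as the only input 4 of the 9 genes had one, Sfrp4 and Ctnnb1 being added, against 27.6% of all protein-coding genes.

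**Figure D1:**
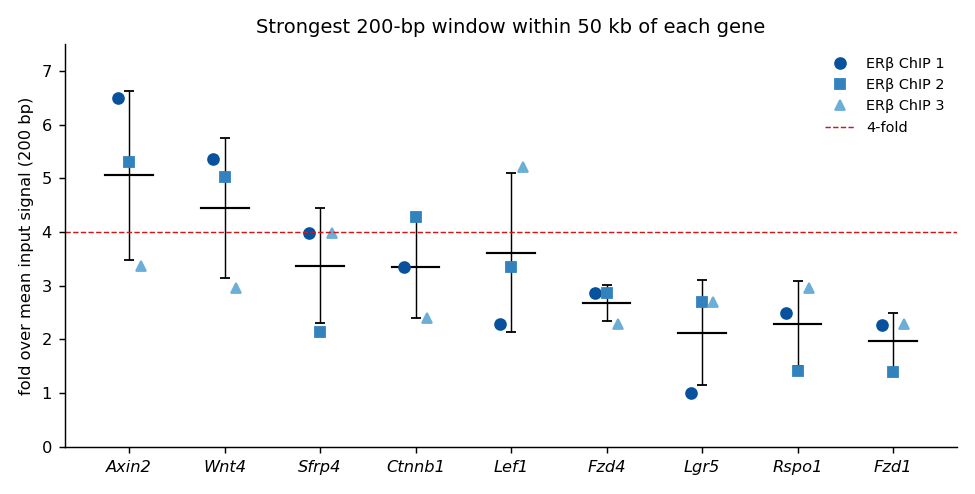
Fold over the mean input signal of each ERβ ChIP replicate (points) in the strongest 200-bp window of each of the 9 genes, with the mean (bar) and SD (n = 3) and the 4-fold threshold (dashed). Axin2 and Wnt4 have ChIP replicates 1 and 2 above the line, Ctnnb1 and Lef1 have 1 replicate above it, and the other 5 genes have none.

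The site near Axin2, which encodes a scaffold of the complex that degrades β-catenin and is itself a common target of Wnt signalling, was the strongest. It lay at chr11:108902341-108902540 in intergenic sequence, 17.9 kb upstream of the gene start (gene at chr11:108920349-108950783, plus strand), and Axin2 was the nearest protein-coding transcription start site (TSS). ChIP replicates 1, 2 and 3 had signals of 5.24, 4.24 and 3.11, and Input replicates 1 and 2 had 0.915 and 0.687. All 3 ChIP replicates lay above both inputs, which the rule that picks a site fixes for 2 of them. The folds were 6.53, 5.30 and 3.88 (mean 5.24 ± 1.33 SD, n = 3), so that replicate 3 fell short of the threshold. The file headers name the tracks in 2 ways, 1 shared by ChIP replicate 1 and Input replicate 1 and 1 by the other 3 libraries. Against the input of the same naming, the folds were 5.72, 6.18 and 4.53, all over 4. Against Input replicate 1 alone they were 5.72, 4.64 and 3.4, and against Input replicate 2 alone 7.62, 6.18 and 4.53. The window held an ERE with 1 mismatch, GGTCTGACTGACC in the line printed above, 1 bp from the window centre, and 0% of its bases were in repeats.

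The site assigned to Wnt4, the ligand of ovarian development, was at chr4:137332931-137333130, 55.5 kb downstream of the Wnt4 start (gene at chr4:137277489-137299726, plus strand). It lay in intron 2 of 5 of the neighbouring gene Cdc42, whose TSS, 24.7 kb away, was the nearest. The ChIP replicates had signals of 2.23, 2.05 and 1.21 over inputs of 0.411 and 0.41, which gave folds of 5.43, 4.98 and 2.94 (mean 4.45 ± 1.33 SD, n = 3). Here too all ChIP replicates were above both inputs, 2 of them by the rule, and replicate 3 was the lowest. With the input of the same naming the folds were 5.42, 4.99 and 2.94, so replicate 3 stayed under 4. The ERE in the window had no mismatch and lay 35 bp from the centre. Of the window, 48.5% was repeat sequence, and 0 bases of the ERE itself were. When a window also had to exceed the mean of its own library in the surrounding 10 kb by over 4-fold, this site was no longer called and that of Axin2 was. When only the gene with the nearest TSS was counted, Wnt4 lost the site to Cdc42.

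Both sites could be called from ChIP replicates 1 and 2 alone, which leaves replicate 3 as a measure not used in the call. At the windows called that way, its fold was 3.50 near Axin2 and 2.94 near Wnt4, with 0 of 2 over 4-fold. At the 31 sites of 73 other pathway genes called from the same 2 replicates, the median in replicate 3 was 8.03, from 2.23 to 19.4, and 26 were over 4-fold. The same share over all sites of the genome was not taken. Nor were these sites matched to those near Axin2 and Wnt4 for their fold in replicates 1 and 2. From replicates 2 and 3 or 1 and 3, 0 sites were called at the 9 genes.

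**Figure D2:**
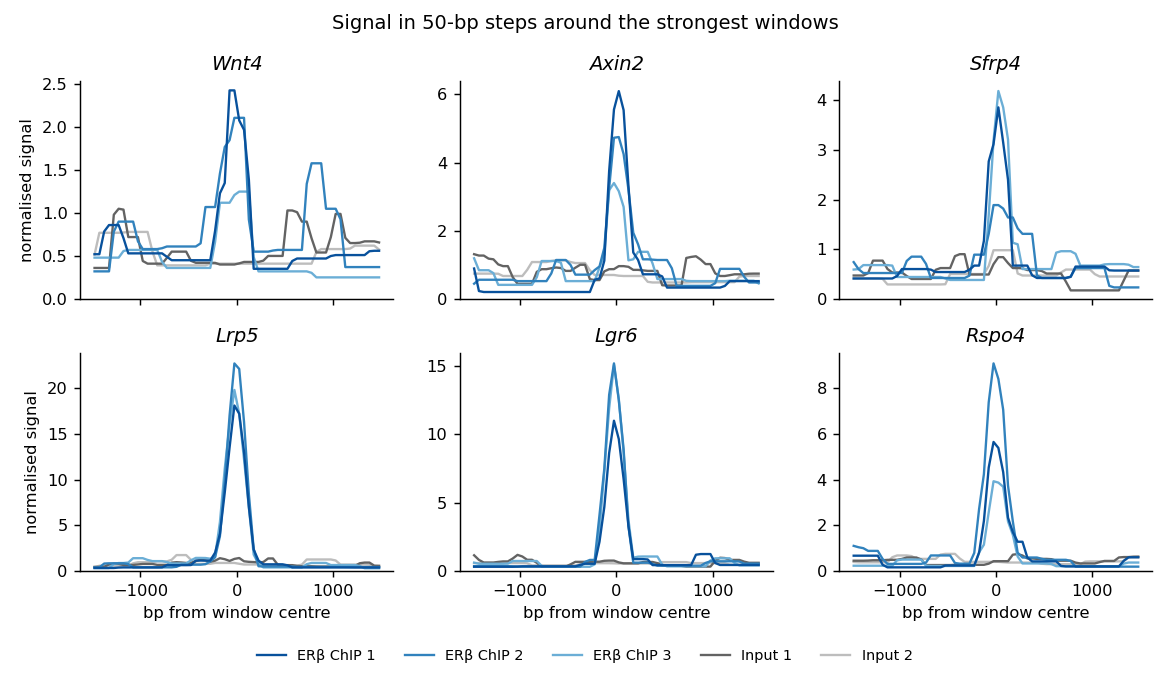
Normalised signal of the 3 ERβ ChIP replicates (blue) and 2 inputs (grey) in 50-bp steps over 3 kb around the strongest windows of Wnt4, Axin2 and Sfrp4 (upper row) and of Lrp5, Lgr6 and Rspo4 (lower row); the vertical scale differs between panels. The windows were picked for high ChIP signal over input. At the centre of each panel the 3 ChIP lines lie above both inputs, which at Sfrp4 also rise there, to 0.84 and 0.98.

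Sfrp4, a secreted Frizzled-related protein that binds Wnt ligands outside the cell, lay just outside the threshold. Its strongest window, chr13:19581041-19581240, was 42 kb upstream of the gene start in intergenic sequence, and the TSS of Epdr1, 38.6 kb away, was nearer. The ChIP replicates had signals of 3.23, 1.73 and 3.23 there, over inputs of 0.717 and 0.901. Every ChIP replicate was above both inputs in this window, which was picked for its fold, now with replicate 2 the lowest. The folds of 3.99, 2.14 and 3.99 (mean 3.37 ± 1.07 SD, n = 3) left 0 replicates over 4. It held an ERE with 1 mismatch. Just inside the threshold was Wnt4, whose strongest window reached 5.02-fold in 2 of 3 replicates.

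The β-catenin gene Ctnnb1 and Lef1, the DNA-binding partner of β-catenin, each had 1 replicate over 4-fold. The strongest window of Ctnnb1, chr9:120973161-120973360, lay in intron 35 of 36 of the neighbouring gene Ulk4, 44 kb downstream of the Ctnnb1 start, with signals of 1.85, 2.36 and 1.33 against 0.45 and 0.655. Its folds were 3.34, 4.28 and 2.40 (mean 3.34 ± 0.937 SD, n = 3). That of Lef1, chr3:131246421-131246620, lay in an exon of the mitochondrial β-oxidation gene Hadh, 136 kb downstream of the Lef1 start, with signals of 2.05, 2.99 and 4.67 against 0.92 and 0.874. Its folds were 2.29, 3.34 and 5.21 (mean 3.61 ± 1.48 SD, n = 3). The replicate that was highest differed, being replicate 2 at Ctnnb1 and replicate 3 at Lef1. The best ERE match had 3 mismatches in both windows, and that of Lef1 held an NR5A motif (TCAAGGTCA).

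The receptors and Rspo1 had the lowest maxima. Fzd4, a Frizzled receptor needed for the corpus luteum, reached 2.87, 2.86 and 2.29 in a window 13.5 kb upstream. Lgr5, an R-spondin receptor found on progenitor cells of the ovarian surface, reached 0.995, 2.69 and 2.70 at 7.42 kb upstream. Rspo1, the R-spondin of the embryonic ovary, reached 2.49, 1.42 and 2.96 in a coding exon of Dnali1 at the outer edge of its territory, where Input replicate 1 was 1.94 times Input replicate 2. Fzd1, another Frizzled receptor, reached 2.26, 1.39 and 2.28 at 49.1 kb upstream, in intron 14 of 14 of Cdk14. In all 4 windows every fold was under 4.

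Ranked by the fold reached in 2 of 3 replicates, the order was Axin2 (5.31), Wnt4 (5.02), Sfrp4 (3.99), Ctnnb1 (3.34), Lef1 (3.34), Fzd4 (2.86), Lgr5 (2.69), Rspo1 (2.49) and Fzd1 (2.26). The median of the 9 was 3.34, and that of all protein-coding genes was 2.53. The SD between replicates ranged from 0.330 at Fzd4 to 1.58 at Axin2, and the difference between any gene and the next in this order was smaller than the larger of their SDs. At a threshold of 3-fold, added after these values were seen, 5 of the 9 genes had a site (7 sites), against 37.5% of all protein-coding genes. The sites that joined were at the 3 windows of Sfrp4, Ctnnb1 and Lef1 described above, 1 in intron 1 of 4 of Wnt4 and 1 at the Sfrp4 promoter. In the Wnt4 intron, 5.95 kb downstream of the start, the folds were 4.41, 2.52 and 3.26.

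**Figure D3:**
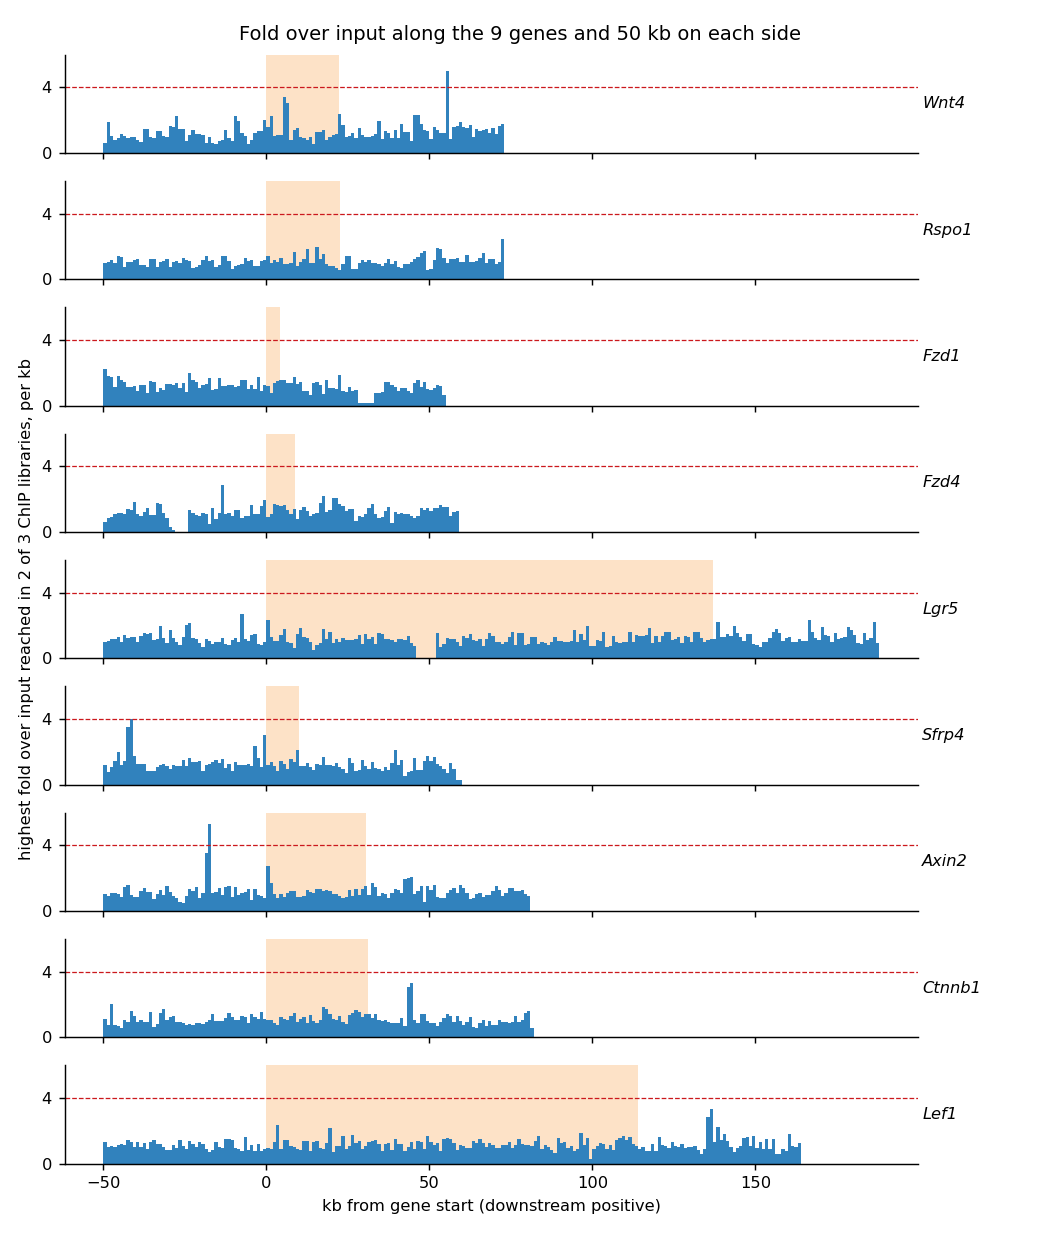
Highest fold over input reached in 2 of 3 ERβ ChIP replicates in each kb of the 9 territories, by distance from the gene start (kb, downstream positive), with the gene body shaded and 4-fold dashed. The line is crossed 55.5 kb downstream of the Wnt4 start and 17.9 kb upstream of the Axin2 start, and Sfrp4 touches it 42 kb upstream.

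Promoters, from 1 kb upstream to 100 bp downstream of the gene start, held no site. All 3 ChIP replicates lay above both inputs at 1 of the 9, that of Sfrp4, and the same was true of 5% of all protein-coding genes. At the Sfrp4 promoter, the ChIP replicates had signals of 1.04, 1.19 and 0.973 and the inputs 0.779 and 0.632, a mean of 1.07 ± 0.114 (SD, n = 3) against 0.706. Its best 200-bp window, centred 0.254 kb upstream, had folds of 3.06, 3.02 and 3.00 (SD 0.0321, n = 3). At the Axin2 promoter the order was the other way, with ChIP signals of 0.387, 0.382 and 0.276 under inputs of 0.635 and 0.641, or 0.546 times the input on average. At the Wnt4 promoter the ChIP replicates ranged from 0.554 to 1.18 and overlapped the inputs (0.730 and 0.691).

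To ask whether EREs near these genes carried signal, all matches with at most 1 mismatch were taken from the sequence. The territories held 2 EREs with no mismatch, and 1 of them, that of Wnt4, lay in a site. Genome-wide, 13.1% of 2357 such EREs did. The other, near Fzd1, lay 49.2 kb upstream of the gene, in the window printed above, with folds of 2.19, 1.39 and 2.97 in the 200 bp around it. Of 35 EREs with 1 mismatch, 1 lay in a site, that of Axin2, against 1.94% of 70103 in the genome. The median fold reached in 2 of 3 replicates at these 35 was 0.923, and that of the genome was 0.802. Second to Axin2 among them was the ERE 41.9 kb upstream of Sfrp4, at 3.78, followed by 1 in a Wnt4 intron 1.29 kb from the start, at 2.24 (2.00, 2.24 and 2.27). Rspo1 had 2 EREs with 1 mismatch, with folds of 0.292, 0.417 and 0.542 at the first and 0.543, 0.407 and 0.951 at the other, where the input was at its floor.

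Both sites at the 9 genes held an ERE with at most 2 mismatches, as did 68.1% of the 4841 sites in the genome and 6.68% of all 200-bp windows. Other motifs searched, on both strands without mismatch, were TCAAGGTCA for NR5A receptors, AGATAA for GATA factors, TGANTCA for AP-1, TGTTTAC for FOXO factors and CTTTGAT for TCF and LEF, and neither site held one of them. The NR5A motif contains the GGTCA of the ERE. In the same order, the shares of all sites with these motifs were 3.47%, 20%, 8.99%, 4.73% and 2.81%, and those of all windows were 0.421%, 13.3%, 5.93%, 2.98% and 4.09%. From a de novo motif search, the paper reports NR5A among its most enriched motifs and in a far larger share of bound sequences. The match without mismatch used here is stricter, so these shares are not comparable with those of the paper.

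Signal was next tested in windows of 1 kb with limma on log2(signal + 0.5), with Benjamini-Hochberg adjustment over all 2430644 windows of the genome. Of the 1267 windows in the 9 territories, 0 were higher and 0 were lower in ChIP at an adjusted p under 0.05, where 0.0957% of all windows were higher and 0.00267% lower. At an unadjusted p under 0.05, 9 were higher and 76 lower (0.71% and 6%), against 1.9% and 3.33% of all windows. The window with the lowest p was that of the Axin2 site, with a log2 difference of 0.77 (SE 0.19, adjusted p = 0.174). The window of the Sfrp4 upstream maximum had 0.64 (SE 0.18, adjusted p = 0.392). Wnt4 held 19 of the windows that were lower at an unadjusted p, Axin2 14 and Rspo1 13, and none of them passed the adjustment. Without ChIP replicate 3, the lowest at this site, the Axin2 window passed, with a log2 difference of 0.87 (SE 0.17, adjusted p = 0.028, limma). It was then the only one of the 9 territories, and 0.101% of all windows were higher. The site had been called from the 2 replicates kept, so this fit gives it no separate support. With any other single library left out, 0 windows of the 9 territories passed.

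Mean signal was also compared over whole territories. Averaged over the 9, it was 0.393, 0.413 and 0.428 in ChIP replicates 1, 2 and 3 and 0.463 and 0.449 in the inputs, so that the groups did not overlap. The difference was -0.0446 (0.411 ± 0.0178, n = 3, against 0.456 ± 0.01, n = 2; exact permutation test, p = 0.1 one-sided and two-sided, the smallest that 10 assignments allow). In single territories the ratio of ChIP to input ran from 0.836 at Rspo1 to 1.02 at Sfrp4. All ChIP replicates lay below both inputs at 6 of the 9, Wnt4, Rspo1, Fzd4, Lgr5, Axin2 and Ctnnb1, and at 47.8% of all protein-coding genes. The median ratio was 0.908 for the 9 and 0.924 for all protein-coding genes. GC content moved with this ratio: the 4 lowest ratios, at Rspo1, Axin2, Ctnnb1 and Wnt4, were in the 4 territories richest in GC (49%, 48.9%, 47.8% and 48.7%), and Sfrp4, with the highest ratio, was the poorest (40.3%). Across 21597 protein-coding genes, GC content and this ratio had a Spearman correlation of -0.860. The part of GC content in the ratio was not tested.

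**Figure D4:**
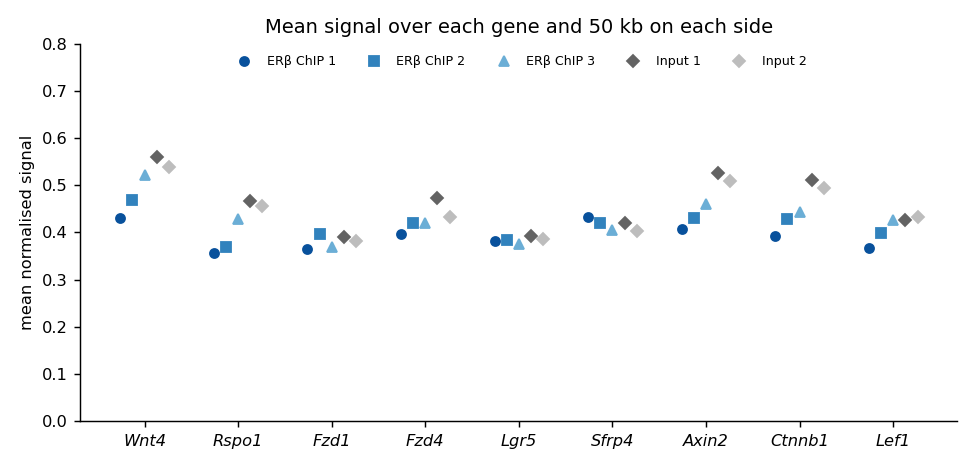
Mean normalised signal of each ERβ ChIP replicate (blue) and input (grey) over each of the 9 genes and 50 kb on each side. The grey points lie above the blue at Wnt4, Rspo1, Fzd4, Lgr5, Axin2 and Ctnnb1, and overlap with them at Fzd1, Sfrp4 and Lef1.

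The rest of the pathway was described from a list of 73 genes. Of these 24 had a site (32.9%), with 42 sites and 3.76 sites per Mb. Of all protein-coding genes 27.5% had one, and the whole genome held 1.89 sites per Mb. The genome value includes sequence far from genes, so the 2 densities are not like for like. A density over the territories of all protein-coding genes was not taken. The median territory was 132 kb for the 73 genes and 117 kb for all protein-coding genes. It was 170 kb for receptors and co-receptors, 147 kb for nuclear effectors and 122 kb for ligands. No share among genes of matching length was taken for the 73 or for single roles. Receptors and co-receptors had one at 7 of 15 genes, nuclear effectors at 6 of 10, ligands at 4 of 18, secreted antagonists at 3 of 12, cytoplasmic transducers at 2 of 11, R-spondins at 1 of 3, receptor turnover at 1 of 2 and ligand secretion at 0 of 2. Counting only the gene of the nearest TSS left 15 of the 73 with a site (20.5%), against 14.9% of all protein-coding genes.

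The strongest sites of the pathway lay at genes other than the 9. Lgr6, an R-spondin receptor related to Lgr5, had 4 sites, and the strongest lay in its own intron, with folds of 14.6, 20 and 19.5. Lrp5, a co-receptor of Frizzled, had 3 sites in its introns, the strongest with 15.2, 19.2 and 16. Rspo4, an R-spondin like Rspo1, had 4 sites 61.8 kb or more downstream of its start, toward and within Angpt4, the strongest with 12.5, 20 and 8.80. At each of these 3 sites all replicates were over 8-fold.

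Gsk3b, the kinase that marks β-catenin for degradation, had its strongest site in an intron of the nuclear receptor gene Nr1i2, with a mean fold of 15.1 ± 0.866 (SD, n = 3). Among nuclear effectors, which act with β-catenin on DNA, Tcf7l2 had 5 sites, the strongest 42.4 kb upstream with a mean fold of 13.4 ± 2.96, and those of Tcf7 and Bcl9 reached 8.23 ± 3.97 (in the promoter of A630014C17Rik) and 6.64 ± 1.15 (intergenic). The receptor gene Fzd10 reached 12.9 ± 1.63 at 24.5 kb upstream. Among ligand genes, Wnt7b and Wnt5b had 6.41 ± 1.44 and 6.26 ± 1.95 in their own introns, and the site counted for Wnt10b, at 7.37 ± 2.45, lay 50.1 kb from its start in the promoter of Fkbp11. Among antagonists, Dkk3 had 7.04 ± 2.42 in its own intron and Sfrp1 6.19 ± 1.27 at 36.1 kb upstream, and the site counted for Notum, at 8.23 ± 0.366, lay in an intron of Aspscr1. That counted for the scaffold gene Apc2, at 8.21 ± 2.63, lay in the promoter of Pcsk4, and that of the ubiquitin ligase gene Znrf3, at 5.22 ± 1.38, in its own intron (all SD, n = 3).

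Of the 10660 1-kb windows at the 73 genes, 18 were higher and 0 lower in ChIP at an adjusted p under 0.05 by limma (0.169% higher). Of all windows of the genome, 0.0957% were higher. At an unadjusted p under 0.05, 104 were higher and 817 lower (0.976% and 7.66%), against 1.9% and 3.33% of all windows. The largest log2 differences were 2.03 at Lrp5 (SE 0.24, adjusted p = 1.7e-06), 1.82 at Lgr6 (SE 0.21, adjusted p = 9.13e-07) and 1.63 at Rspo4 (SE 0.21, adjusted p = 5.29e-06). The Axin2 window, at 0.77, was about as large as the smallest that passed, 0.78 at Sfrp1 (SE 0.17, adjusted p = 0.0465). Of the 42 sites, 69% held an ERE with at most 2 mismatches, 23.8% with at most 1 and 0 without mismatch, against 68.1%, 33.1% and 6.36% of all 4841 sites. GATA motifs were in 10 of the 42 (23.8%), TCF/LEF motifs in 4 (9.52%), AP-1 motifs in 3 (7.14%), and NR5A and FOXO motifs in 0. In the same order, the shares of all sites were 20%, 2.81%, 8.99%, 3.47% and 4.73%. The TCF/LEF motifs were in sites counted for Fzd2, Znrf3 and Gsk3b. The nearest TSS of these sites was that of Gm11627, Kremen1 and Nr1i2.

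**Figure D5:**
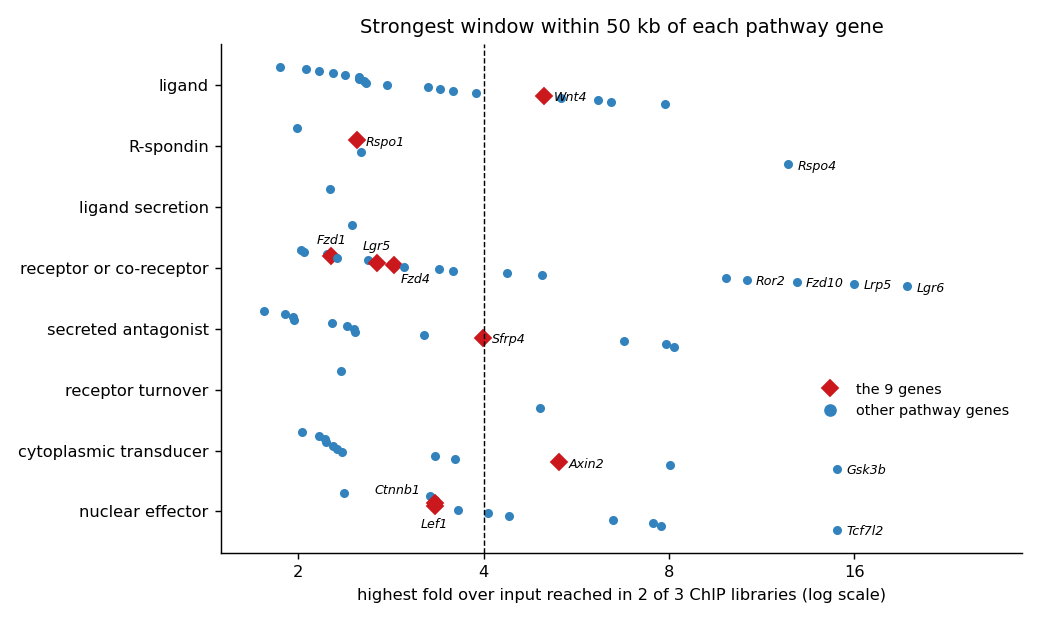
Highest fold over input reached in 2 of 3 ERβ ChIP replicates (log scale) in the strongest 200-bp window of each of the 9 genes (red diamonds) and of the 73 other pathway genes (blue points), by role, with 4-fold dashed. Axin2 and Wnt4 lie to the right of the line among the ligands and transducers, and Lgr6, Lrp5, Tcf7l2 and Gsk3b lie farthest to the right.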

How the data were processed

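The libraries were 3 ERβ ChIP replicates and 2 inputs of ovaries of C57BL/6J mice, grouped by the sample titles. The authors cross-linked the tissue, aligned the reads with STAR to mm10 and kept unique alignments. With HOMER they made the deposited tracks, 1 per library, whose values are signal (coverage) normalised to a common total. Signal times length summed to between 928 and 948, in units of 1000000, per library. Values are averaged over segments, with median lengths of 486, 481 and 486 bp in the ChIP replicates and of 269 and 519 bp in the inputs, so the inputs differ in resolution and a 200-bp window can be narrower than a segment. Depth is unknown from such values, and replicates alone set the precision. The labels do not say that replicate numbers mark a shared batch.

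The tracks were read into 10-bp bins of the autosomes and chromosome X. Windows of 200 bp were slid by 10 bp, called windows within 200 bp were merged, and the window of the highest mean fold stood for a site. The strongest window of a gene was that with the highest fold reached in 2 of 3 replicates, and can lie some bases from the site window. Genes came from GENCODE release 21 for mouse and sequence from the RefSeq GRCm38 assembly, and all 82 listed genes matched. For 1-kb windows with a mean signal of at least 0.1, limma 3.58.1 (R 4.3.3) was run with an empirical Bayes trend. On its log2(signal + 0.5) scale, change at low signal is understated. The authors' tag counts were not used here. Python 3.11.15, numpy 2.4.6 and scipy 1.17.1 did the rest. Site calls and limma were tested on simulated data. The 9 genes and the list of 73 were chosen with earlier results of these data known, so no count over them is given a p. Named were all 9 genes and, in each role of the list, up to 3 genes with the highest mean fold at a site; others named beside a motif were chosen after their values were seen. Alternatives covered the fold, the number of replicates, the flank, the input and its floor, a local background, the window size, the pseudocount, the filter and each library left out.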

Additional observations from a re-analysis of the deposited data

How the results depend on the processing

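At the 9 genes the main values were 2 sites at 2 genes, and 24 of the 73 other pathway genes had a site. The share of all protein-coding genes with a site, 27.5% in the main setting, follows each alternative. Over 8-fold the values became 0, 0 and 10, against 11.5%. Over 4-fold in all 3 ChIP replicates there were 0 sites at 0 genes, against 20.1%. The local background left 1 site at 1 gene, against 26.4%. A flank of 10 kb gave 0, 0 and 13, against 13.5%. A flank of 100 kb gave 5 sites at 2 of the 9 genes (22.2%) and 39 other genes, against 40.4%. The nearest TSS alone gave 1, 1 and 15, against 14.9%. Over 3-fold, chosen after seeing the data, there were 7 sites at 5 genes, against 37.5%. Leaving out single libraries gave 0 to 4 sites at 0 to 4 genes, against 21.1% to 30.4%. The number of 1-kb windows higher in ChIP ranged from 0 to 1 without single libraries. EREs without mismatch were in 50% of the sites, against 100% with at most 2 mismatches. Of 81 alternatives for the strongest windows, 9 moved the fold by more than the SD between replicates. A change of direction was scored only for the mean signal over the territories, where ChIP stayed below input in every alternative. Sfrp4 and Ctnnb1 passed 4-fold in 100-bp windows (4.07 and 4.08). The cause of these changes was not tested.

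ChIP and input libraries share the replicate numbers 1 and 2, but deviations of same-numbered libraries from their group means correlated at only 0.036 and -0.011 across 1-kb windows. With the number as a replicate block, limma called 1 window higher (Axin2) and 5 lower at the 9 genes. The lower windows were 2 at Wnt4 and 1 each at Rspo1, Fzd4 and Ctnnb1. In the genome 3427 were higher and 3207 lower, with 1 residual degree of freedom. No input shares the number of the remaining ChIP replicate, so this fit compared only ChIP replicates 1 and 2 with the inputs. The log2 difference at the Axin2 window was 0.87, the same as in the fit that left that replicate out. The Axin2 site had been called from ChIP replicates 1 and 2, so the block fit gives it no separate support.

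With 3 ChIP replicates and 2 inputs no permutation p under 0.1 can be reached, signal of single cell types was not measured, and counting error is unknown from the tracks.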

Other observations

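Beyond 50 kb, the nearest site of the 7 genes without one in their territory was 232 kb downstream of the start at Fzd4 and 262 kb downstream at Fzd1. At Ctnnb1, Sfrp4, Lef1 and Rspo1 it was 312, 330, 385 and 456 kb downstream. For Lgr5 it was 1598 kb upstream. That of Fzd4, in an intron of the malic enzyme gene Me3, had folds of 31.0, 32.8 and 42.7 in ChIP replicates 1, 2 and 3 and held an ERE with 1 mismatch. That of Sfrp4, nearest to Gpr141, had 11.9, 15.7 and 17.9, and that of Lef1, nearest to Sgms2, had 8.75, 12.3 and 13.7. The site 262 kb from Fzd1 was nearest to the TSS of Fzd1 itself, and its folds were 3.05, 4.83 and 4.19. Wnt4 had a site over 8-fold 116 kb downstream of its start, nearest to the elastase gene Cela3a, with folds of 14.8, 15.0 and 14.1. No gene was assigned to these sites here by any measure other than distance. The authors list Fzd1 with an intergenic ERβ site 262 kb from its TSS. They report binding of the receptor LRH-1 there in granulosa cells, and lower Fzd1 RNA in ovaries without ERβ.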
